A study of Mus musculus with 21 samples.

Results

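Cells kept for 10 days in IL-2v were compared with cells kept for the same time in IL-15, both at a low dose. Each was dosed at 5 IU/mL, and whether these units gave equal amounts or equal signals was not tested. The comparison used every cell barcode of the IL-2v library at 5 IU/mL and of the IL-15 library at 5 IU/mL, which gave 6181 and 5451 cells, 11632 of the 106458 cells in the series. They were CD8 T cells of OT1 mice, in which a transgene fixes the T cell receptor to one that binds an ovalbumin peptide. The cells were naive at the start, were stimulated with beads that carry antibodies to CD3 and CD28 on day 0, and were then expanded with the cytokine, so the bead stimulus was common to both libraries. The treatment label of the IL-2v library names a mutant IL-2, called IL-2bg, and that of the other library names interleukin-15. The sources used here do not say which residues of IL-2 were changed, how many mice gave the cells or whether cells of several mice were pooled.

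The series holds 21 single-cell RNA libraries, 1 for each of 21 conditions: naive cells, activated cells without cytokine, and cells in IL-2, IL-2v or IL-15 at 5 or 50 IU/mL on days 3, 5 and 10. With 1 library per condition there is no measure of the spread between cultures and no test was made. Every difference given here therefore describes 2 libraries, and the 95% intervals cover counting error only. The extraction text in the labels describes a sort of T cells from tumours, whereas the growth text describes culture, and the libraries were read as cultured cells.

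IL-2 and IL-15 both signal through a receptor made of the beta chain (Il2rb) and the common gamma chain (Il2rg), which activates the kinases Jak1 and Jak3 and the transcription factor STAT5. IL-2 also binds the alpha chain (Il2ra, CD25), while IL-15 is usually presented by its own alpha chain on a neighbouring cell. In CD8 T cells strong signals of this kind are known for driving division, glycolysis and granzyme production, and weaker ones for survival and for keeping genes of resting and memory cells such as Tcf7 and Il7r.

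The IL-2v library held 32648496 UMIs (unique molecular identifiers, tags that mark captured RNA molecules), with a median of 4780 per cell, and the IL-15 library held 23311265, with a median of 3927. Over all 21 libraries the median per cell ranged from 3016 to 5065. Levels are given as CPM, a gene's UMIs scaled to a common library total,, and a difference is IL-2v minus IL-15 on the log2(CPM + 1) scale, which understates the change of low genes. Cd3d was detected in 96.1% of the cells of the IL-2v library and in 98.6% of those of the IL-15 library, and Cd8b1 in 85.6% and 92.0%, so the T cell label held in both. Markers of CD4 T, B, myeloid, dendritic and erythroid cells were each detected in at most 2.51% of cells in either library. In the lists of NK and stromal markers the detected genes were mainly Eomes (34.7% of cells in IL-2v and 4.95% in IL-15) and Pecam1 (6.12% and 15.8%, against 23.9% in the naive library), and each other NK or stromal gene was in at most 1.34% of cells. Cd4, Ms4a1, Lyz2 and Ncr1 had 0 UMIs in IL-2v. Only 7 barcode sequences occurred in both libraries, the median over all 210 pairs of libraries. Ribosomal protein genes took 36.0% of the UMIs in IL-2v and 41.1% in IL-15, and the nuclear RNA Malat1 took 0.619% and 1.70%. The part of these shares in the results was not tested beyond the scaling given next.

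Of 5824 genes with at least 20 CPM in either library, 621 (10.7%) were at least 2-fold higher in IL-2v and 377 (6.47%) were at least 2-fold lower. The median difference over all these genes was 0.00. Scaling to totals without ribosomal protein and mitochondrial genes shifted the median to -0.14 and gave 698 higher and 684 lower genes of 7461. More genes then reached 20 CPM, and 550 of the 621 higher and all 377 lower genes kept their call. Higher genes made up 62.2% of the calls here and 50.5% under that scaling. A gene enters by its level in either library, so the counts for each list below cover tested genes only. Most lower genes were modestly lower: 329 of the 377 differed by less than 4-fold, against 377 of the 621 higher genes. Differences of at least 16-fold were seen for 79 higher and 6 lower genes.

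**Figure D1:**
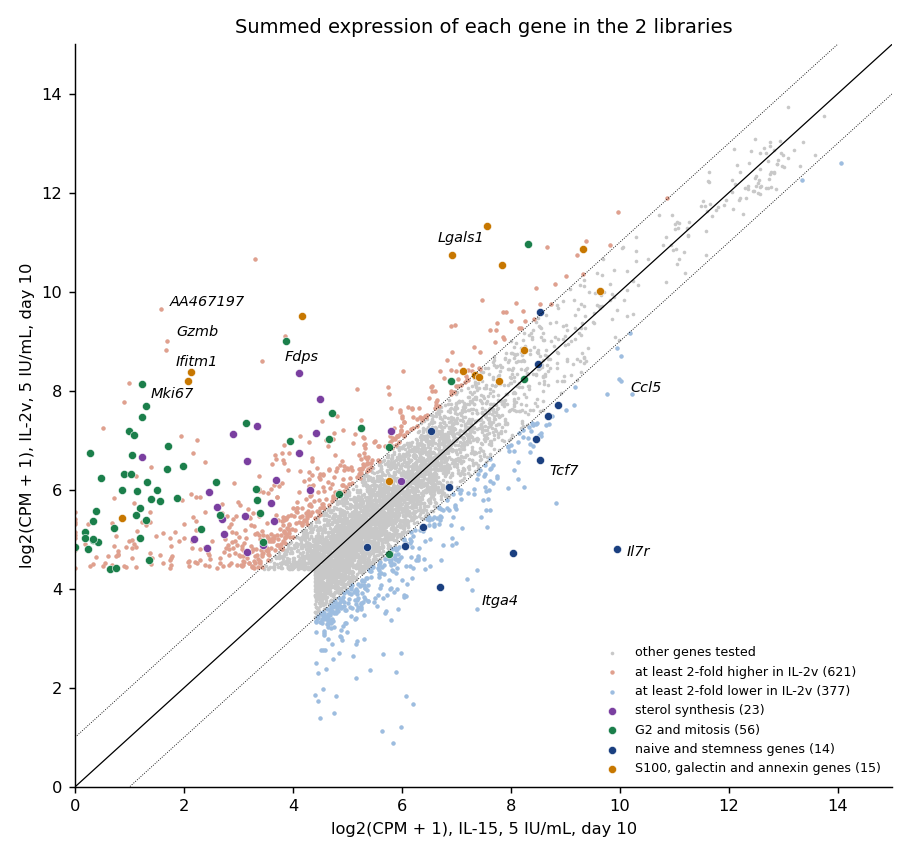
Each point is a gene with at least 20 CPM in either library, placed by its log2(CPM + 1) in the IL-15 library (x axis) and in the IL-2v library (y axis); the solid line marks equal levels and the dotted lines 2-fold differences. Points at the left edge above the line, such as Gzmb, AA467197 and Ifitm1, were close to 0 in IL-15 and between 450 and 799 CPM in IL-2v, and Il7r lies far below the line, at 991 CPM in IL-15 and 27.0 in IL-2v.

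The starts of a few genes are shown first, because sterol synthesis and cell division genes, which stood high in IL-2v, often hold the same letters upstream of their starts. The sequences are the 250 bases before the gene start, 5′ to 3′ on the gene's strand, from RefSeq for GRCm38.p6. Capitals mark CCAAT, in either orientation (CCAAT or ATTGG), and in Hmgcs1 also the sterol response element TCACCCCAC, and in Mcm5 also an E2F motif. Hmgcs1 makes HMG-CoA for the mevalonate pathway (chr13:119690101-119690350, + strand), Mvd acts later in it (chr8:122443423-122443672, - strand), Mcm5 is a subunit of the replicative helicase (chr8:75109259-75109508, + strand) and Ccnb2 is a mitotic cyclin (chr9:70421555-70421804, - strand).
Hmgcs1: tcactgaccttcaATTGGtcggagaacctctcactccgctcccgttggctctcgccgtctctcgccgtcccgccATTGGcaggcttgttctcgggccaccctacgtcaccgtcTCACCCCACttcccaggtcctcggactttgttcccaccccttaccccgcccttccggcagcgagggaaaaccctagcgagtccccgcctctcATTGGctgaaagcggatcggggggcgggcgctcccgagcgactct
Mvd: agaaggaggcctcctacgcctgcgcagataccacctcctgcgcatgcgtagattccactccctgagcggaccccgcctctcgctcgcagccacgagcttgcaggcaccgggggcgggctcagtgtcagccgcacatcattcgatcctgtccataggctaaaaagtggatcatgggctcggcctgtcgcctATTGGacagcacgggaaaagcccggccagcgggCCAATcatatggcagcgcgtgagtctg
Mcm5: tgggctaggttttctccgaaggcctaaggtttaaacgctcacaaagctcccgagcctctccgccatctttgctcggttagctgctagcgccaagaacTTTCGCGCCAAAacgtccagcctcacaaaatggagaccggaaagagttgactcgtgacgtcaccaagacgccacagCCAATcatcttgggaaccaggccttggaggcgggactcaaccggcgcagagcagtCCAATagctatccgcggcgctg
Ccnb2: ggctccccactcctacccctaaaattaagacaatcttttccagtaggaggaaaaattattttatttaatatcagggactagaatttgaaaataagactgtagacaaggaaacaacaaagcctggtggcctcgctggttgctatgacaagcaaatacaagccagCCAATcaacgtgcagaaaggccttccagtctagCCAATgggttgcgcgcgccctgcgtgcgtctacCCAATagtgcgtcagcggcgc

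In Hmgcs1, CCAAT lay at 3 places and the sterol response element began 137 bases before the start. Mvd had 2 CCAAT motifs, the nearer beginning 27 bases before the start, and Ccnb2 had 3, beginning 87, 54 and 21 bases before it. In Mcm5 the matches of TTTCGCGC and, on the other strand, TTTGGCGC overlapped each other, and neither overlapped a CCAAT motif. Searched on both strands, CCAAT was present before 14 of 16 sterol synthesis genes with a sequence (87.5%), 36 of 48 genes of G2 and mitosis (75%) and 22 of 35 genes of DNA replication (62.9%). It was present before 36.7% of all 4693 tested genes with a sequence, 46.8% of 504 higher genes, 36.6% of 295 lower genes and 34.5% of all 27025 RefSeq promoters. An E2F motif (TTTGGCGC or TTTCGCGC) was present before 14 of the 504 higher genes (2.78%), 0 of the 295 lower genes and 1.75% of the tested genes (0.681% of all promoters). The sterol response element TCACNCCAC was present before 1 of the 16 sterol genes and 0.916% of the tested genes (1.03% of all promoters). The STAT5 motif TTCNNNGAA was present before 6.75% of the higher, 4.75% of the lower and 5.71% of all tested genes (7.14% of all promoters), which are shares close to one another. These are matches of letters and do not show that a factor was bound.

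Genes that make cholesterol were higher in IL-2v nearly without exception. Of 24 sterol synthesis genes 23 were tested; 22 of these stood at least 2-fold higher and 0 lower, with a median difference of 2.62 against 0.00 over all genes. Fdps, which makes farnesyl diphosphate (GRCm38 chromosome 3, 89093588 to 89101959), was at 325 CPM in IL-2v, 16.3 in IL-15 and 38.1 in naive cells, a 19.9-fold difference (95% interval 18 to 22.1). Its upstream partner Idi1 was at 139 and 6.48 CPM, and the sterol demethylase Cyp51 at 156 and 9.14 CPM. Hmgcs1, shown above, was at 226 CPM in IL-2v and 21.5 in IL-15. The transcription factor that drives these genes, Srebf2, differed less, at 145 and 54.7 CPM, and Ebp, at 70.8 and 62.0 CPM, was the 1 tested member under 2-fold.

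The IL-15 library lay at the low end of the series for this pathway: for 19 of the 23 genes it was the lowest or next to lowest of the 21 libraries. In naive cells Hmgcs1 was at 31.8 CPM, like Fdps above the IL-15 library. In single cells thinned to 2000 UMIs the sterol genes held a median of 0.15% of UMIs in IL-2v and 0.00% in IL-15, since 52.6% of IL-15 cells had 0 sterol UMIs, against 7.61% of IL-2v cells. Antisense or overlapping exons are annotated at Fdps, Idi1, Cyp51 and Hmgcs1, among others. Without knowledge of the strand used in counting, reads of these neighbours cannot be told apart.

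Fatty acid synthesis and desaturation showed the same direction, with 11 of 12 tested genes at least 2-fold higher, 0 lower and a median of 1.41. The desaturase Scd2 was at 386 CPM in IL-2v, 9.82 in IL-15 and 32.1 in naive cells, 39.3-fold apart (34.5 to 44.9). Its relative Scd1 had 1075 UMIs (32.9 CPM) in IL-2v and 0 in IL-15, and Fads2 had 1294 UMIs (39.6 CPM) and 0. Against a floor of 3 UMIs in the IL-15 library these are at least 256-fold and at least 308-fold higher, and placing them at these bounds left the list's median at 1.41. Fatty acid synthase, Fasn, was at 123 and 18.5 CPM. Fatty acid oxidation genes did not follow: 1 of 13 was at least 2-fold higher, against 10.7% of all genes, 0 were lower, and the median was 0.13.

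**Figure D2:**
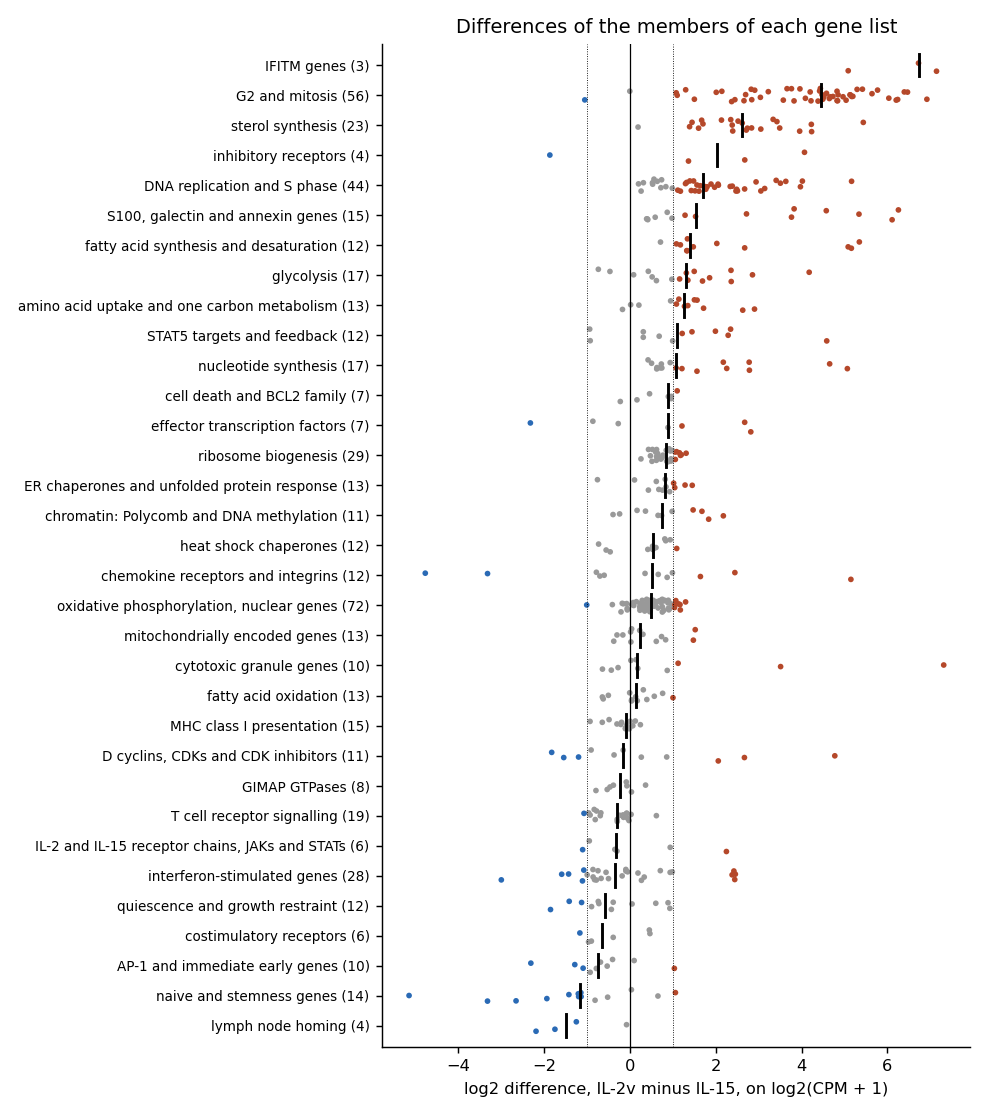
Each point is a tested gene of a list, placed by its log2 difference (IL-2v minus IL-15), with red points at least 2-fold higher, blue points at least 2-fold lower and black bars at the list medians; the number of tested genes stands in brackets. Sterol synthesis and mitosis genes lie almost wholly to the right of the 2-fold line, and homing and naive genes lie mostly to the left.

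Genes of cell division were far higher in IL-2v. Of 56 tested genes of G2 and mitosis, 54 were at least 2-fold higher in IL-2v and 1 was lower, with a median of 4.46; of 44 genes of DNA replication 33 were higher, 0 were lower and the median was 1.70 (in noncycling cells 7 of 23 were higher). The proliferation marker Mki67 (chromosome 7, 135689784 to 135716361) was at 281 CPM in IL-2v, 1.33 in IL-15 and 15.2 in naive cells. The mitotic kinase Cdk1 was at 117 and 2.27 CPM, and Mcm5 at 97.7 and 11.9 CPM. Pttg1, securin, was the lower gene, at 25 CPM in IL-2v and 52.9 in IL-15. The IL-15 library was the lowest of all 21 libraries for 41 of the 56 mitosis genes, below naive cells as well.

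Cells with a UMI of Mki67 or Top2a made up 32.0% of the IL-2v library (1957 of 6123 cells with at least 2000 UMIs, exact interval 30.8% to 33.1%) once each cell was thinned to 2000 UMIs. They made up 2.39% of the IL-15 library (129 of 5394, 2.0% to 2.84%) and 1.68% of the naive library. Before thinning, with median depths of 4780 and 3927 UMIs, the shares were 40.6% and 5.21%, and 3.01% in naive cells at a median of 3799. Among the other day 10 libraries the thinned share was 17.7% in IL-2v at 50 IU/mL, 11.8% in IL-2 at 5, 7.82% in IL-2 at 50 and 7.69% in IL-15 at 50 IU/mL, so the share was highest with IL-2v at the low dose. A looser rule, at least 3 UMIs of the G2 and mitosis list, gave 54.0% in IL-2v, 36.5% in IL-15 and 27.9% in naive cells. Under it the other day 10 libraries held 42.0% (IL-2 at 5 IU/mL), 29.3% (IL-2v at 50), 24.9% (IL-15 at 50) and 17.0% (IL-2 at 50). Since 27.9% of naive cells also met this rule, it does not set dividing cells apart. In IL-15 a UMI of Mki67 or Top2a need not mark a dividing cell either, since the level of Mki67 was lower there than in naive cells. Il7r was detected in 75.2% of thinned IL-15 cells with such a UMI and in 75.7% of those without. The highest share of the G2 and mitosis list in a single thinned cell was 1.6% in IL-15, 4.6% in IL-2v and 4.7% in naive cells. Summed over cells, the list held 0.109% of UMIs in IL-15 at 5 IU/mL, the lowest of the 21 libraries. It held 0.115% in naive cells and 0.719% in IL-2v at 5 IU/mL. Too few cells with markers of other types were found to serve as a reference for free RNA, so its part in these shares was not tested. The naive shares come from a separate library, which cannot measure free RNA in these 2, and are given for comparison only.

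Restraints on the cell cycle were uneven. Cdkn1b, the inhibitor p27, was at 68.9 CPM in IL-2v and 203 in IL-15, with 110 in naive cells, and the antiproliferative gene Btg1 was at 244 and 868. The kinase Cdk6 was the other way, at 177 and 27.1 CPM, and the inhibitor Cdkn2a had 860 UMIs in IL-2v (26.3 CPM) and 0 in IL-15, at least 204.7-fold higher. The D cyclins themselves differed by under 2-fold, Ccnd2 being at 513 and 427 CPM and Ccnd3 at 189 and 211.

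To see what was left outside dividing cells, all cells with a Mki67 or Top2a UMI were removed from both libraries, which kept 3670 cells of IL-2v and 5167 of IL-15. Of 5567 genes tested in these noncycling cells 330 (5.93%) stood higher in IL-2v by at least 2-fold and 323 (5.8%) stood lower. Of the 621 higher genes 304 (49.0%) were also higher there, and of the 377 lower genes 276 (73.2%) were also lower. The G2 and mitosis list, which holds the genes used to remove cells, had a median of 0.08 over 13 tested genes, from which nothing is read. Sterol synthesis kept 21 of 22 tested genes at least 2-fold higher with a median of 2.32, and Fdps differed by 3.72 in noncycling cells. Fatty acid synthesis had 4 of 9 genes higher and a median of 0.95, and nucleotide synthesis 1 of 10 and 0.45, against 9 of 17 and 1.07 in all cells.

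**Figure D3:**
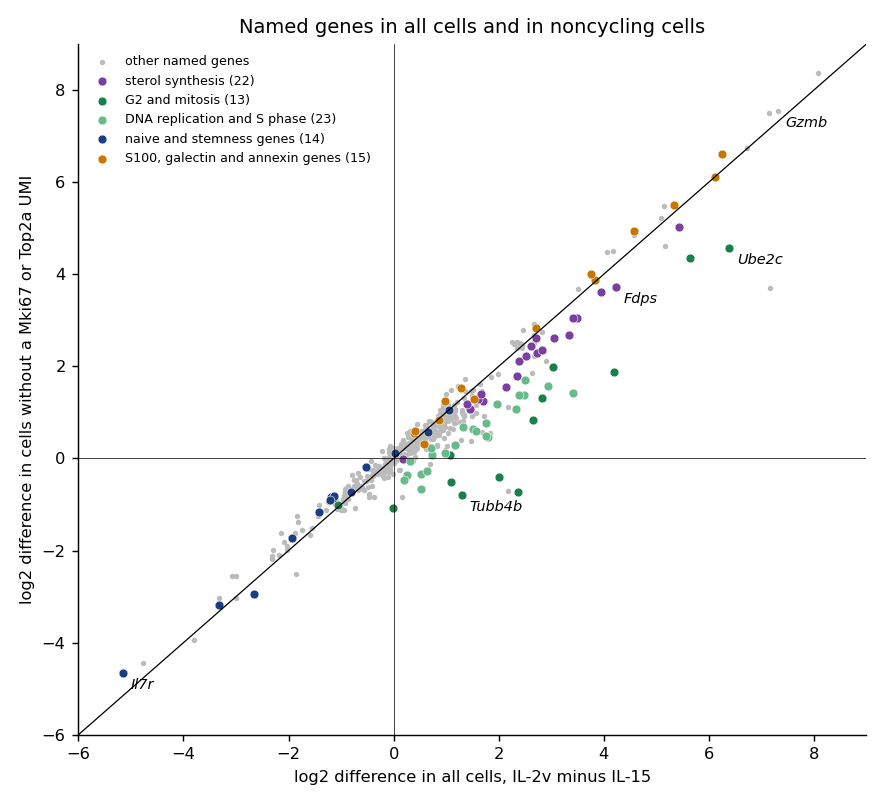
Each point is a named gene with at least 20 CPM in either library in both sets of cells, placed by its log2 difference in all cells (x axis) and in noncycling cells (y axis). Sterol, S100 and naive genes stay near the line of equality, and genes of mitosis and DNA replication lie below it, some of them below 0.

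The genes with the largest differences other than those of division belonged to effector cells. Gzmb, the protease granzyme B (chromosome 14, 56258838 to 56262260), was at 512 CPM (504 to 520) in IL-2v, 2.23 (1.67 to 2.93) in IL-15 and 6.50 in naive cells, 230-fold apart (175 to 307). After thinning it was detected in 53.0% of IL-2v cells, 0.426% of IL-15 cells and 0.671% of naive cells, so the share in IL-15 was not above that in naive cells. How much of the few Gzmb UMIs in IL-15 was free RNA was not tested. The IL-15 library had the lowest level of all 21 libraries. The IL-2v library in turn was the 14th highest, far under the 7618 CPM of IL-2 at 50 IU/mL on day 10. Most other granule genes differed little, with a median of 0.16. Of 10 tested 3 were at least 2-fold higher, against 10.7% of all genes, and 0 were lower. Besides Gzmb these were the serpins Serpinb6b, at 33.8 and 2.06 CPM, and Serpinb9, which inhibits granzyme B, at 20.3 and 8.79. The effector transcription factor Eomes was at 106 CPM in IL-2v and 14.2 in IL-15, Id2 at 299 and 129, and Ikzf2 at 6.89 and 38.4.

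AA467197, also called Nmes1, encodes a small mitochondrial protein related to the complex IV subunit Ndufa4, and its difference of 8.07 was the largest of the named genes on the log2(CPM + 1) scale. It was at 799 CPM in IL-2v and 1.97 in IL-15, 405-fold apart (303 to 553), and at 0.379 in naive cells (chromosome 2, 122636986 to 122641191). It was detected in 65.6% of thinned IL-2v cells and 0.426% of IL-15 cells, and Ndufa4 was at 147 and 297 CPM. The microRNA Mir147 lies on the same exons. The interferon-induced membrane genes Ifitm1, Ifitm2 and Ifitm3 were all higher in IL-2v, at 450, 150 and 38.8 CPM against 2.19, 0.429 and 0.172 in IL-15. Near-identical copies of Ifitm2 are annotated, so its counts are less certain.

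Many members of the S100, galectin and annexin families, which are known to be abundant in effector and memory cells, were also higher. Of 15 genes of the S100, galectin and annexin list 9 stood at least 2-fold higher and 0 lower, with a median of 1.53 in all cells and 1.52 in noncycling cells. Lgals3 was at 331 CPM in IL-2v and 3.35 in IL-15, S100a4 at 722 and 16.9, S100a6 at 2557 and 187, Lgals1 at 1711 and 120, and the filament gene Vim at 1495 and 227. Among the lists, this one set the most single cells apart: 89.5% of IL-2v cells held a larger share of these UMIs than the 95th percentile of IL-15 cells, with medians of 1.15% and 0.30%. Outside the list, the chemokine receptor Ccr2 was at 135 and 2.83 CPM, and the adhesion receptor Cd44 at 67.5 and 11.6.

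**Figure D4:**
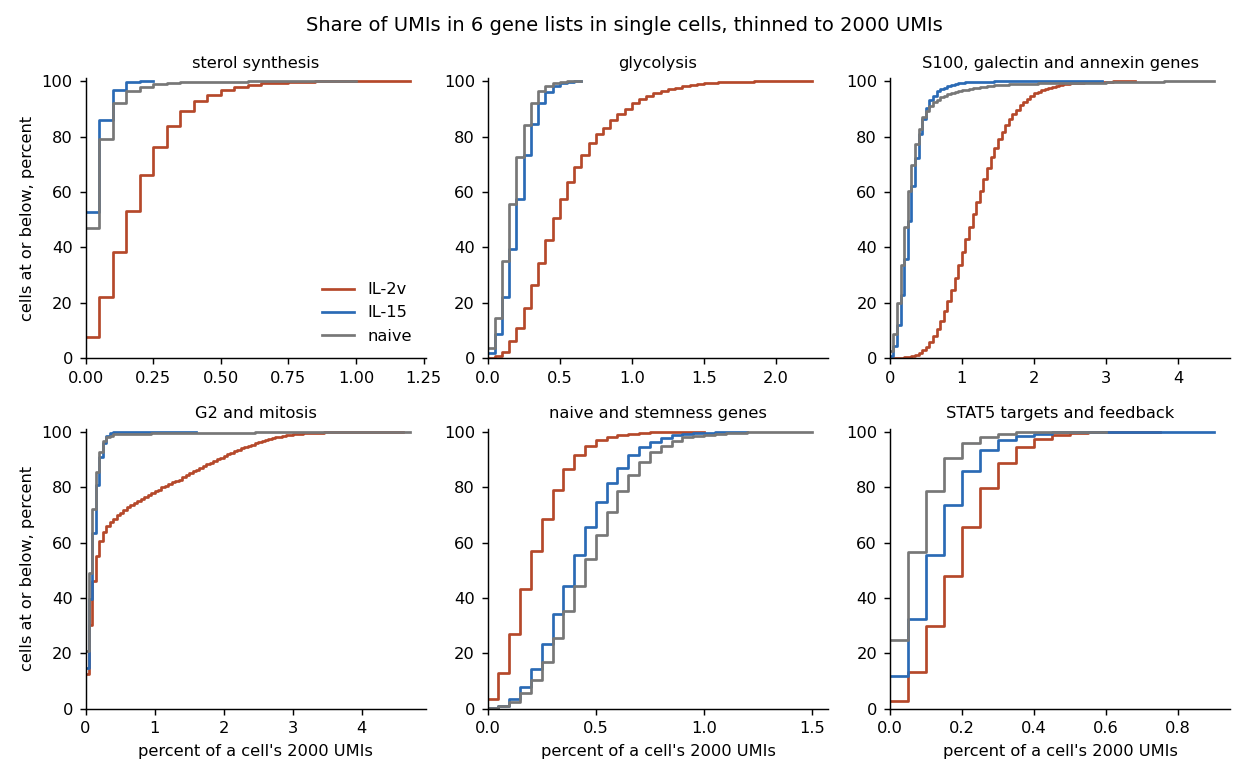
Each curve gives the percent of cells (y axis) whose share of UMIs in a list is at or below the value on the x axis, for cells thinned to 2000 UMIs in the IL-2v, IL-15 and naive libraries. The S100 curve of IL-2v hardly overlaps that of IL-15, while the IL-15 and naive S100 curves lie close together, with medians of 0.30% and 0.25%. The sterol and glycolysis curves of IL-2v are shifted as a whole, and the mitosis curve of IL-2v bends where a part of the cells carries up to several percent.

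Genes of resting cells were higher in IL-15. Of 14 tested naive and stemness genes 9 were at least 2-fold lower in IL-2v and 1 was at least 2-fold higher, with a median of -1.17, and of 4 homing genes 3 were lower and 0 higher. In noncycling cells 5 of 14 naive and stemness genes were at least 2-fold lower, with a median of -0.85, and 2 of 4 homing genes. Of all genes tested there 5.8% were lower. Il7r, the receptor for the survival cytokine IL-7 (chromosome 15, 9505788 to 9530176), was at 27.0 CPM (25.2 to 28.8) in IL-2v, 991 (978 to 1003) in IL-15 and 446 in naive cells. It was 36.7-fold lower in IL-2v (34.4 to 39.4), and the IL-15 library was the highest of all 21. After thinning Il7r was detected in 5.32% of IL-2v cells, 75.7% of IL-15 cells and 45.6% of naive cells. Tcf7, the factor TCF1 of naive and memory cells (chromosome 11, 52252371 to 52283014), was at 95.6 CPM in IL-2v, 369 in IL-15 and 471 in naive cells, 3.86-fold apart (3.70 to 4.02). Its partner Lef1 was at 130 and 349 CPM, and the memory-linked inhibitor Id3 at 15.5 and 103.

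Genes of lymph node homing and exit were among the lower ones. Klf2, which drives the exit receptor S1pr1, was at 302 CPM in IL-2v and 1016 in IL-15, S1pr1 at 179 and 428, and the chemokine receptor Ccr7 at 65.4 and 302. Satb1, a chromatin organiser of T cells, differed little, at 369 and 361 CPM. Dapl1, a gene of naive CD8 cells, was at 144 CPM in IL-2v and 91.5 in IL-15, against 630 in naive cells. Ly6c2, which marks memory cells, was the 1 gene of the list at least 2-fold higher in IL-2v, at 771 and 370 CPM.

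Within the IL-2v library UMIs of these genes were found in cycling and noncycling cells, at lower shares in the cycling ones for Tcf7, Lef1 and Il7r. After thinning Tcf7 was detected in 14.3% of 1957 cycling cells (12.8% to 15.9%) and 18.9% of 4166 noncycling cells (17.8% to 20.2%). For Lef1 the shares were 18.2% and 26.1%, and for Il7r 2.66% and 6.58%. No share from cells that lack these genes is at hand, so free RNA in these shares was not tested. Gzmb was detected in 51.1% of cycling and 53.9% of noncycling cells, and Ly6c2 in 57.8% and 56.2%. The noncycling IL-2v cells still differed from the noncycling IL-15 cells, where Tcf7 was detected in 50.2%, Il7r in 75.7% and Gzmb in 0.380% of 5265 cells. Cells without a Mki67 or Top2a UMI can still be dividing at this depth. The classes in this paragraph were called after thinning, unlike the 3670 and 5167 noncycling cells used for the gene lists, which were called before it.

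Among chemokine receptors and integrins 3 of 12 tested genes were at least 2-fold higher in IL-2v and 2 were lower, with a median of 0.50. The shares over all genes were 10.7% and 6.47%. The lower ones were integrins. Itgae, the integrin CD103 that binds epithelial cadherin, was at 1.32 CPM in IL-2v and 62.2 in IL-15, 47.3-fold apart (34.9 to 65.6), and Itga4 was at 14.7 and 156. The actin crosslinker Actn1 was at 25.3 and 261 CPM, Rflnb, which binds filamin, at 11 and 165, and Ypel3 at 52.3 and 450. The 15 lowest genes were ranked among those of at least 100 CPM in the higher library, which leaves out Itgae. The remaining ones were Arl5c, Dusp2, Gm30054, Zbtb20, Ssbp2, Znrf1, Iigp1, Id3, Ltb and Ccr7, with differences from -3.00 to -2.03. Ltb, a cytokine of lymphoid tissue, was at 243 CPM in IL-2v and 1192 in IL-15.

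Ccl5, a chemokine made by memory and effector cells, was lower in IL-2v by level, while the shares of cells with a UMI were close. Free RNA of this abundant transcript can add to these shares, and its part was not tested. It was at 290 CPM in IL-2v, 1042 in IL-15 and 885 in naive cells, while 24.8% (23.7% to 25.9%) and 23.5% (22.4% to 24.7%) of thinned cells had a UMI, and 9.93% in naive cells. Cells with a UMI held a mean of 2.73 Ccl5 UMIs in IL-2v, 10.1 in IL-15 and 16.8 in naive cells. These are means over cells with a UMI, and a few cells with many UMIs can carry them. In IL-15 cells the whole list of cytokines and chemokines, Ccl5 included, held a median of 0.15% of UMIs and 0.65% at the 95th percentile. In IL-2v cells these values were 0.05% and 0.25%. The list also holds Ltb, so its median does not describe Ccl5 alone.

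Some STAT5 targets were higher in IL-2v, whereas the receptor chains, JAKs and STATs as a list were not. Of 6 tested genes of that list 1 was at least 2-fold higher and 1 lower (10.7% and 6.47% over all genes), with a median of -0.33. Of 12 tested STAT5 targets 6 were at least 2-fold higher, 0 were lower and the median was 1.11. In noncycling cells 7 of 12 were higher, against 5.93% of all genes tested there, and the median was 1.08. The feedback inhibitor Socs2 (chromosome 10, 95385362 to 95417180) was at 106 CPM in IL-2v, 3.47 in IL-15 and 3.30 in naive cells, and Cish was at 69.2, 12.8 and 4.71. The other feedback inhibitors differed by less than 2-fold, Socs1 being at 131 CPM in IL-2v and 105 in IL-15, and Socs3 at 14.0 and 27.8. The survival gene Bcl2 differed little, at 641 and 517 CPM, both above the naive 191, and Mcl1 was at 136 and 259. Of the receptor chains, Il2ra was at 81.5 CPM in IL-2v and 16.4 in IL-15, Il2rb at 258 and 134, and Il2rg at 244 and 302. The kinase gene Jak1 was at 268 and 576 CPM.

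Outside lipid synthesis, metabolic lists differed in how many members were higher in IL-2v. For glycolysis 10 of 17 tested genes stood at least 2-fold higher and 0 lower (median 1.31), and 9 of 17 in noncycling cells: Pgk1 was at 643 and 125 CPM, Tpi1 at 261 and 35.2, and Ldha at 773 and 239. For the IL-15 library 14 of the 17 were the lowest or next to lowest of the 21 libraries, and the list held 0.550% of UMIs in IL-2v, 0.214% in IL-15 and 0.177% in naive cells. At 50 IU/mL on day 10 it held 1.30% in IL-2v and 1.17% in IL-15, and that pair's median difference was 0.12 over 19 tested genes. For amino acid uptake and one carbon metabolism 9 of 13 were higher, 0 lower, and 3 of 13 were higher in noncycling cells, with the transporter Slc7a5 at 63.5 and 9.44 CPM and the serine enzyme Psat1 at 76.4 and 9.35. Most nuclear genes of oxidative phosphorylation differed by less than 2-fold, with 7 of 72 higher, a share no larger than the 10.7% of all genes, 1 lower (Ndufa4) and a median of 0.50. In noncycling cells 3 of 72 were higher, against 5.93% of all genes tested there. Their sum was 2.22% of UMIs in IL-2v and 1.55% in IL-15, and 91.8% of IL-2v cells were above the IL-15 median. Of 29 genes of ribosome biogenesis 7 were higher, 0 lower (median 0.84), and 2 of 29 were higher in noncycling cells. The list was led by nucleolin, Ncl, at 1273 and 513 CPM.

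Interferon-stimulated genes went both ways, with 4 of 28 tested at least 2-fold higher in IL-2v, 5 lower and a median of -0.34. Over all genes 10.7% were higher and 6.47% lower. Isg15 was at 48.0 CPM in IL-2v and 8.02 in IL-15, with 53.2 in naive cells, and Ifi27l2a at 914 and 175. The GTPase Iigp1 was at 17.4 and 146 CPM. Inhibitory receptors were few: Lilrb4a was at 24.4 and 0.515 CPM, Cd160 at 43.2 and 5.92, Btla at 24.4 and 8.88, and Ctla4 at 13.6 and 52.2.

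The pair was closest on day 3 and farthest apart on day 10. At 5 IU/mL, 24 of 5736 genes (0.418%) were at least 2-fold higher in IL-2v and 2 (0.0349%) lower on day 3, and 363 of 5685 (6.39%) and 30 (0.528%) on day 5. At 50 IU/mL the counts were 108 (1.78%) and 69 (1.14%) of 6072 on day 3, 540 (8.74%) and 104 (1.68%) of 6182 on day 5, and 499 (9.03%) and 287 (5.19%) of 5526 on day 10. Of the genes tested in both, the day 5 pair at 5 IU/mL shared 207 higher genes with the day 10 pair, 37.9% of the day 10 genes and 76.1% of the day 5 genes. The day 10 pair at 50 IU/mL shared 188 higher genes, 37.8% of those at 5 IU/mL and 59.3% of those at 50.

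The sterol list's median difference was 0.09, 1.74 and 2.62 on days 3, 5 and 10 at 5 IU/mL, and 2.57 on day 10 at 50 IU/mL. The mitosis list's median was 0.22, 1.20 and 4.46 over the days, and 0.97 at 50 IU/mL on day 10. It covered 60, 61 and 56 tested genes over the days and only 33 at 50 IU/mL, so the members differ between the doses. The sterol list had 23, 22 and 23 tested genes, and 20 at 50 IU/mL. Gzmb differed by 0.18, 2.03 and 7.31 over the days and by 5.06 at 50 IU/mL on day 10. For Tcf7 the values were -0.36, -0.46 and -1.94 at 5 IU/mL, and -3.00 at 50 IU/mL on day 10. Granule genes as a list had a median of 0.16 over 10 tested genes at 5 IU/mL and 2.39 over 18 at 50 on day 10. A gene enters by its level in the higher library, so these medians cover different genes and are not compared. Whether the doses differ was not tested, since each has 1 library.

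**Figure D5:**
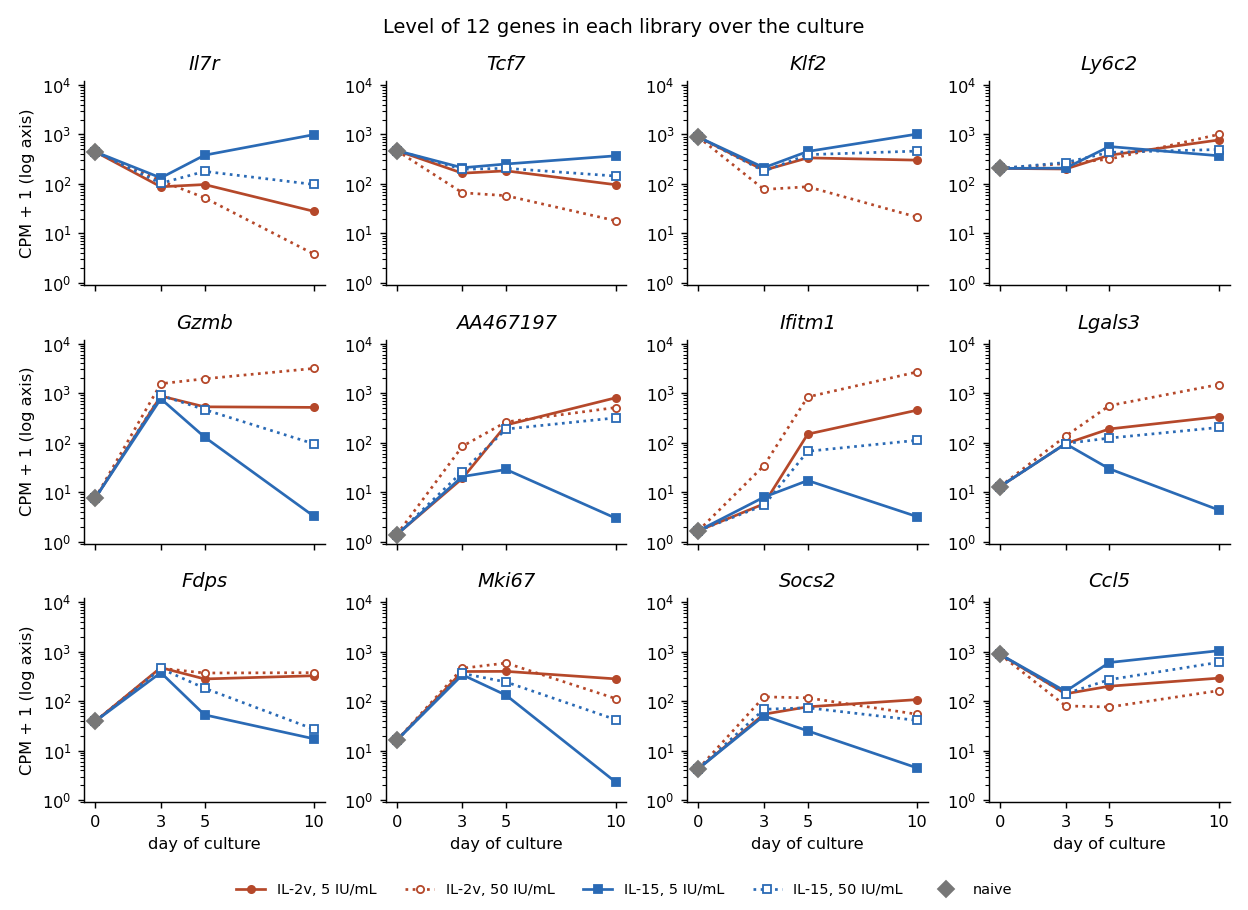
The level of 12 genes, as CPM + 1 on a log axis, is plotted against the day of culture for IL-2v and IL-15 at 5 IU/mL (solid lines, filled points) and 50 IU/mL (dotted lines, open points), each point being 1 library and the diamond the naive library shared by all lines. The solid lines start together on day 3 and part by day 10, with Gzmb in IL-15 going from 766 to 128 and 2.23 CPM while IL-2v is at 871, 526 and 512.

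The levels over time at 5 IU/mL show on which day and in which library each gene was high. Il7r in IL-15 was at 132, 380 and 991 CPM on days 3, 5 and 10, and in IL-2v at 86.7, 96.3 and 27.0. Fdps in IL-15 went from 376 to 51.9 and 16.3 CPM, and in IL-2v from 475 to 280 and 325. Mki67 in IL-15 went from 340 to 131 and 1.33, and in IL-2v from 396 to 398 and 281. AA467197 in IL-2v was at 17.9, 225 and 799 CPM, and in IL-15 at 19.5, 27.5 and 1.97. Each value is 1 library, and the order of the days holds no replicate check.

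Over the 5495 genes used for distances (root mean square difference of log2(CPM + 1)), the IL-15 library was nearest to naive cells, at 0.487, and next to activated cells without cytokine on day 5, at 0.509. The IL-2v library was nearest to IL-15 at 50 IU/mL on day 5, at 0.509, and was at 0.938 from naive cells. The 2 libraries were 0.996 apart. Against the naive library, 71 genes stood at least 2-fold higher and 202 lower in IL-15 (of 5698), and 547 higher and 569 lower in IL-2v (of 6003). Both counts share the naive library.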

How the data were processed

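Single-cell RNA libraries of cultured mouse CD8 T cells were analysed, 1 library per condition and no replicates. The authors deposited raw UMI counts per gene and cell barcode for 17516 gene symbols in each library, as whole numbers. The submitters' processing notes name Cell Ranger, Seurat (4.0.1 and 3.0.2) and the build mm10; the strand used in counting is not given in the sources used here.

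All cells of both tables were kept. Counts were summed per library and divided by the library total to give CPM. A gene was tested for size at 20 CPM or more in either library, and called at a 2-fold difference of CPM + 1. No p-value was computed. Intervals are exact Poisson for levels, conditional binomial for folds and Clopper-Pearson for shares, at 95%. The floor for genes at 0 was 3 UMIs per library. Cells were thinned to 2000 UMIs for shares of cells, which left out 58 IL-2v, 57 IL-15 and 306 naive cells. No doublet caller was run; cells over 2 times the median UMIs were left out as an alternative. Named genes were members of the gene lists, plus the 15 with the largest differences each way among genes of at least 100 CPM in the higher library; any other gene was chosen after its values were seen. The comparison and the lists were chosen with earlier results of these data known. Of the lists, that of metallothioneins had 0 genes tested.

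Gene positions, overlaps and near-identical copies came from the GENCODE annotation of GRCm38, and promoters from RefSeq for GRCm38.p6. The calculations were tested on simulated data. Alternatives changed the cells, the scaling (edgeR 4.0.16 and DESeq2 1.42.0 for scaling factors only), the pseudocount and the filter. Python 3.11.15, numpy 2.4.6, scipy 1.17.1, pandas 2.3.3, matplotlib 3.10.9 and R 4.3.3 were used.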

Additional observations from a re-analysis of the deposited data

Results flagged for a closer look

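Of the named genes with at least 20 CPM in either library of both pairs, 2 differed by at least 2-fold in opposite directions at the 2 doses on day 10. Crip1, a small zinc-binding LIM protein, was higher in IL-2v at 5 IU/mL, with a difference of 1.53, and lower at 50 IU/mL, with -1.14. The interferon-induced GTPase Iigp1 was lower in IL-2v at 5 IU/mL, with -3.00, and higher at 50 IU/mL, with 1.44. Each value compares 1 library with 1 other, and whether the doses differ was not tested.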

How the results depend on the processing

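All 12 alternatives ran; leaving out a replicate was not possible, and No paired analysis was possible because every condition has 1 library and no test was made. The filter of at least 1000 UMIs removed 0 cells. The 621 higher genes became 330 in noncycling cells (no Mki67 or Top2a UMI), 969 in cells with such a UMI, 1247 without the filter on low values and 331 at 50 CPM. The count of 969 sets 2511 IL-2v cells against 284 IL-15 cells, and whether those IL-15 cells were dividing was not tested. The 377 lower genes became 684 with totals without ribosomal protein and mitochondrial genes, 212 with a pseudocount of 10, 818 without the filter and 202 at 50 CPM. TMM scaling gave 703 and 327, and DESeq2 size factors 707 and 325. The share of cells with a Mki67 or Top2a UMI was 40.6% in IL-2v and 5.21% in IL-15 without thinning. It was 25.04% and 1.19% at 1000 UMIs. At least 3 UMIs of the mitosis list were held by 54.0% and 36.5% of cells thinned to 2000 UMIs, and by 27.9% of naive cells. The inhibitory receptors' median was -1.87 at 50 CPM, where only Ctla4 was left. In noncycling cells 15 of 264 named calls had the opposite sign: Cenpa -0.40, H2afx -0.70, Kif20b -0.60, Kif22 -0.52, Kif23 -0.40, Mad2l1 -0.046, Ncapd2 -0.077, Ndc80 -2.02, Plk1 -0.12, Racgap1 -0.51, Rfc3 -0.18, Rfc5 -0.20, Smc2 -0.73, Spc25 -0.057 and Tubb4b -0.79. In the same cells 167 calls kept their sign and 2-fold size, and under the other alternatives between 229 and 264 did. The causes were not tested. Differences between cultures, batches and cytokines cannot be told apart with 1 library each, and genes near the floor of 0.129 CPM in IL-15 have wide counting intervals.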

Other observations

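A few gene groups differed little between the libraries. Of 15 genes of MHC class I presentation and 8 GIMAP GTPases, which are linked to lymphocyte survival, 0 were at least 2-fold different, with medians of -0.10 and -0.24. Of 83 ribosomal protein genes 1 was higher and 1 lower. 

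Of 19 T cell receptor signalling genes 0 stood at least 2-fold higher and 1 stood lower, with a median of -0.30. Their sum was 0.754% of UMIs in IL-2v and 1.07% in IL-15, and 8.72% of IL-2v cells were above the IL-15 median.

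Of 12 heat shock chaperones 1 was at least 2-fold higher and 0 lower, with a median of 0.54, and in noncycling cells 0 were higher and 1 lower. Of 13 chaperones and unfolded protein response genes of the endoplasmic reticulum 4 were higher and 0 lower, with a median of 0.82, against 10.7% of all genes higher. In noncycling cells 1 of these 13 was higher, with a median of 0.28, against 5.93% of all genes higher there.

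Among 13 mitochondrially encoded genes 2 were at least 2-fold higher in IL-2v. These were mt-Nd3, at 1707 CPM in IL-2v and 595 in IL-15, and mt-Atp8, at 303 and 108, while mt-Co1 was at 6133 and 7567. Of 10 immediate early genes 1 was higher and 3 were lower, among them Dusp2, at 37.0 and 187 CPM. Of 12 genes of quiescence and growth restraint 0 were higher and 3 lower. Of 11 Polycomb and DNA methylation genes 4 were higher and 0 lower in all cells, and 0 of 11 were either way in noncycling cells. Beside these counts, 10.7% of all tested genes were higher and 6.47% lower, and 5.93% and 5.8% in noncycling cells.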
